A study of Mus musculus with 58 samples.

Results

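The 10 genes *Cldn5*, *Slc2a1*, *Abcb1a*, *Pecam1*, *Flt1*, *Cdh5*, *Tek*, *Slco1c1*, *Ly6c1* and *Esam* mark the endothelial cells of brain vessels and the blood–brain barrier. They were taken by name, and all 10 are listed among the 31246 genes of the entorhinal cortex (EC) and of the primary visual cortex (PVC). RNA-sequencing covered 29 libraries per region, 10 from *APOE3/3* and 19 from *APOE3/4* mice, and the same 29 animal numbers occur in both regions. The mice were C57Bl/6 males of 14 to 15 months. In these targeted replacement mice human *APOE* stands under the mouse promoter in place of mouse *Apoe*, so every mouse carried at least 1 human *APOE3* allele and none was a mouse with its own *Apoe*. The mice came from more than one colony, and colony was not analysed here.

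Endothelial cells line every vessel of the brain. Tight junctions seal the gaps between them, adherens junctions hold them together, and transporters carry glucose, hormones and other nutrients across the cell layer or pump drugs back into the blood. Receptors for the VEGF and angiopoietin ligands act in the growth and upkeep of the vessels. In bulk cortex these cells are a minority, and their transcripts are read against a background of neurons and glia.

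The value used for each gene is the authors' mean normalized count of a region, which is the mean over all its libraries of counts divided by size factors. This mean pools both genotypes and comes with no value for a single mouse. Levels are therefore given without an error, no test could be made, and *APOE3/4* and *APOE3/3* mice cannot be told apart in it. The deposited fold changes and *p*-values between the genotypes are the authors' own comparison and were not used. The means of all genes summed to 49385488 in the EC against 27058393 in the PVC, so the tables stand on different scales. Each gene was therefore also placed among the 13317 genes with a mean of at least 100 in either region, which include all 10 genes. Of the neuronal genes of cortex, *Snap25* (112526 in the EC, 88658 in the PVC) and *Slc17a7* (77884 and 38116) had high mean normalized counts in both regions, which does not tell the EC from the PVC.

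All 10 genes were detected well above the filter, with mean normalized counts between 564 for *Esam* and 3511 for *Slc2a1* in the EC. In the PVC they ran from 356 for *Tek* to 2114 for *Slc2a1*. Their sum made up 0.0322% of all normalized counts of the EC and 0.0327% of those of the PVC. To compare levels between genes, each mean was divided by the length of the gene's exons in kilobases. Per kilobase the 10 genes differed by up to 8.67-fold in the EC and 9.82-fold in the PVC. *Slc2a1*, *Ly6c1*, *Slco1c1* and *Cldn5* held the first 4 places in both regions, in that order. These 4 lay above the median of all genes, which here and below means those with a mean of at least 100 in either region. That median was 394 per kilobase in the EC and 215 in the PVC, and the other 6 lay below it.

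**Figure D1:**
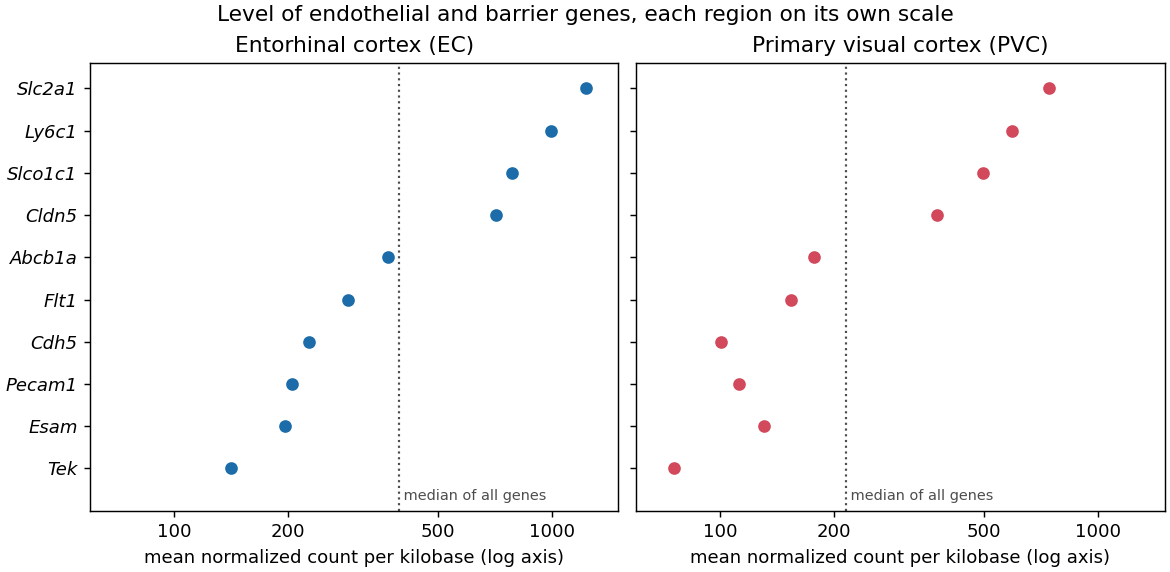
Each point is 1 gene, at the authors' mean normalized count of a region per kilobase of exon (log axis), with the EC on the left and the PVC on the right. The dotted line is the median of all genes with a mean of at least 100. The regions were normalized separately, so positions are read within a panel, where *Slc2a1* stands highest and *Tek* lowest in both.

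Among the transporters, *Slc2a1* encodes GLUT1, which carries glucose across the barrier and is also made by astrocytes. It had a mean normalized count of 3511 in the EC against 2114 in the PVC, or 1231 and 741 per kilobase. That placed it at the 82.5th percentile of all genes per kilobase in the EC and at the 84.0th in the PVC, the highest of the 10. Below the median, the percentiles in the EC ran from 22.2 for *Tek* to 47.7 for *Abcb1a*. *Slc2a1* lies on chromosome 4 of NCBIM37 from 118781316 to 118809935. There, 3.68% of its exon bases are shared with *Gm12868*, a non-coding transcript on the opposite strand, and the library kit does not mark strand.

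*Slco1c1* encodes the thyroid hormone transporter OATP1C1, which is found in brain endothelium and in astrocytes. Its mean normalized count was 2138 in the EC against 1351 in the PVC, or 786 and 496 per kilobase, the third place in each region. *Abcb1a* encodes P-glycoprotein, the efflux pump that returns many drugs to the blood. Its mean normalized count was 2021 in the EC against 970 in the PVC, or 369 and 177 per kilobase, close under the median of all genes. Of the 149-base windows of its transcripts, the length of 1 read, 4.46% occur without a mismatch in the paralog *Abcb1b*. *Abcb1b* itself had means of 250 and 124, so the pump's counts came mostly under *Abcb1a*.

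Among the junction and adhesion genes, *Cldn5* encodes claudin-5, which builds the strands of the endothelial tight junction. Its mean normalized count was 1009 in the EC against 529 in the PVC, or 714 and 374 per kilobase. It stood at the 68.7th and 67.4th percentiles per kilobase. *Cldn5* is a gene of a single exon on chromosome 16, from 18776940 to 18778353 in NCBIM37.

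The other 3 genes of this kind were lower. *Cdh5* encodes VE-cadherin, the cadherin of the endothelial adherens junction, and had a mean of 910 in the EC against 401 in the PVC, or 228 and 101 per kilobase. *Pecam1* encodes an adhesion protein of endothelial contacts that leukocytes and platelets also carry, and had 887 and 483, or 206 and 112 per kilobase. *Esam* encodes an adhesion molecule of endothelial tight junctions and had 564 and 375, or 197 and 131 per kilobase. *Cdh5*, *Pecam1* and *Esam* stood in this order in the EC and in the reverse order in the PVC, but this reversal rests on the length used. Divided by the longest transcript, the EC levels were 303 for *Esam*, 258 for *Pecam1* and 228 for *Cdh5*, the same order as in the PVC with 201, 140 and 101. No error is at hand to say which of these neighbouring places differ.

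Of the receptors, *Flt1* encodes VEGFR1, which binds VEGF-A and placental growth factor. It had the second highest mean normalized count, 3344 in the EC against 1784 in the PVC, but its exons span 11583 bases and its level per kilobase was 289 and 154. That length is the union of 5 annotated transcripts. Divided by its longest single transcript, the EC level was 485. *Tek* encodes TIE2, the receptor for angiopoietins. It was the lowest per kilobase in both regions, with means of 669 and 356 and levels of 142 and 75.5 per kilobase.

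*Ly6c1* encodes a small GPI-anchored surface protein of brain endothelium. Its mean normalized count was 835 in the EC against 498 in the PVC, and its exons are short, so that it reached 993 and 593 per kilobase, the second place in each region. The gene lies on the minus strand of chromosome 15 of NCBIM37 from 74875447 to 74879260, beside its near-identical copy *Ly6c2* from 74938590 to 74942114, which marks monocytes. The first 300 bases of both coding sequences, taken from the GENCODE transcripts of NCBIM37, are shown to let the 2 genes be told apart, with capitals at the bases that differ.

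*Ly6c1*: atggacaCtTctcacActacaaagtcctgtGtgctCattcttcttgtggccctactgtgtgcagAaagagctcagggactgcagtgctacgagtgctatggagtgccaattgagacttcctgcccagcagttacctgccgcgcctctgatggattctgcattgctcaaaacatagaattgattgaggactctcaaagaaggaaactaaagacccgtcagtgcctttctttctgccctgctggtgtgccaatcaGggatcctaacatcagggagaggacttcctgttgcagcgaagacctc

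*Ly6c2*: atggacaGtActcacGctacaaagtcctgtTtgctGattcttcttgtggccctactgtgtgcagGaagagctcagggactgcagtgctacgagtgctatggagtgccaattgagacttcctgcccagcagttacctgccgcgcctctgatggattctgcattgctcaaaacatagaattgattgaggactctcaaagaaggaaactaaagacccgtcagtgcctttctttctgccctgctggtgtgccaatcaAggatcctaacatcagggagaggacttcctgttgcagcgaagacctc

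The coding sequences of 396 bases differ at 9 positions and are 97.73% identical, 7 of these positions lying in the bases shown. The longest stretch without a difference is 188 bases, longer than a read of 149 bases, and 5.78% of the read-length windows of *Ly6c1* occur in *Ly6c2* without a mismatch. Reads from these windows cannot be assigned. In the deposited tables nearly all of the signal stood under *Ly6c1*, as *Ly6c2* had means of 2.74 in the EC against 0.958 in the PVC. The remaining 8 genes have no such window in another protein-coding transcript.

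To compare the regions, the ratio of the PVC mean to the EC mean was set against the median ratio of all 13317 genes, which was 0.540 (a log2 ratio of −0.89). Relative to that median, none of the 10 genes was past a limit of 0.32 on the log2 scale in either direction. Of all genes, 9.56% were past this limit with the higher level in the PVC and 13.0% with the lower level there. The 10 of 10 genes within it are to be read against 77.4% of all genes within it. The median log2 ratio of the 10 genes was −0.0047, beside 0 for all genes by construction. With the means as deposited every log2 ratio is lower by the shift of −0.89 given above, all 10 genes are lower in the PVC and 95.5% of all genes are past the limit toward the EC, so every direction given here is relative to that shift. As the values rest on 2 pooled means per gene, their spread between mice is not known here. A region with fewer endothelial cells and one with less of a transcript per cell cannot be told apart in bulk tissue.

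**Figure D2:**
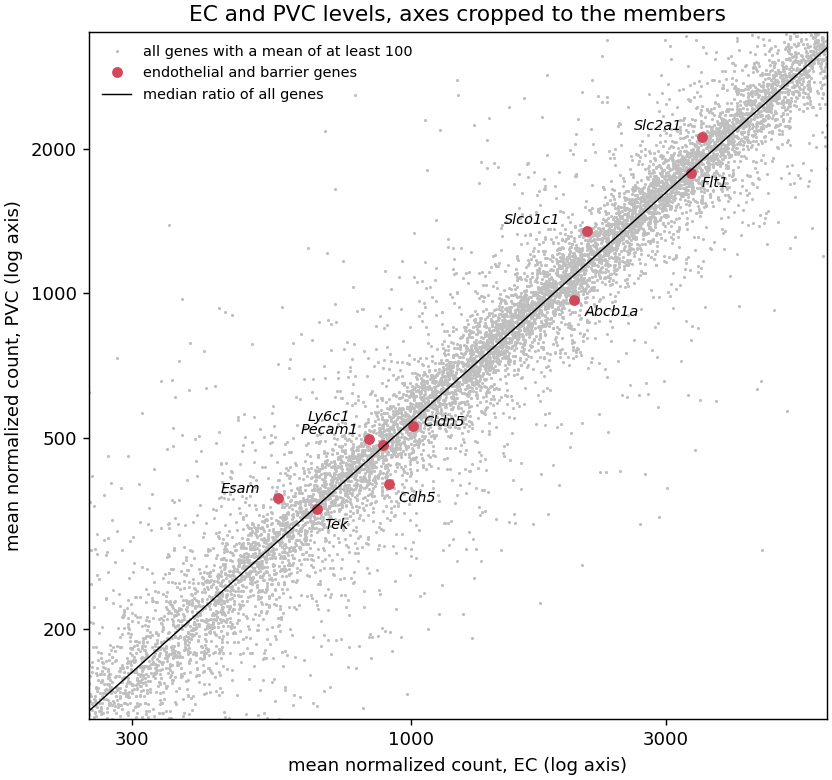
Mean normalized counts of the EC (x axis) and the PVC (y axis), both log axes cropped to the range of the 10 genes. Grey points are all genes with a mean of at least 100, red points the 10 genes, and the line is the median PVC to EC ratio of 0.540. The 10 genes lie along the line, with *Cdh5* furthest below it and *Esam* furthest above it.

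*Esam* was furthest toward the PVC, with a log2 ratio of 0.30 relative to all genes, and *Cdh5* furthest toward the EC, with −0.29. Both encode adhesion proteins of endothelial contacts. The transporters *Slco1c1* (0.23) and *Slc2a1* (0.16) stood on the PVC side with *Ly6c1* (0.14), and the transporter *Abcb1a* (−0.17) on the EC side. *Pecam1* (0.01), *Flt1* (−0.02), *Tek* (−0.02) and *Cldn5* (−0.04) lay next to the median of all genes, and *Pecam1* changed its side of it when the tables were scaled by their sums. Among all genes, *Esam* stood at the percentile 89.4 of this ratio and *Cdh5* at the percentile 14.3.

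A ratio of 2 genes within a region does not depend on how the tables were scaled against each other. *Flt1* stood at 2.03 times the level of *Tek* per kilobase in the EC and at 2.04 times in the PVC, so the receptor pair kept nearly the same proportion. *Esam* stood at 0.862 times the level of *Cdh5* in the EC and at 1.30 times in the PVC, a shift of 1.51-fold and the largest of all 45 pairs. The shift does not depend on gene length, but the side of 1 does, as *Esam* stood above *Cdh5* in both regions when divided by the longest transcript. The 45 shifts follow from the ratios of the single genes given above and are not separate observations. No share was computed for pairs drawn from all genes, so the counts of pairs only describe these genes. The median shift was 1.13-fold and 37 of the 45 pairs shifted by no more than the same limit. Of the 8 pairs past it, 7 had *Cdh5* or *Abcb1a* as the gene with the lower share in the PVC, and the other was *Esam* over *Cldn5* (0.276 and 0.349).

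**Figure D3:**
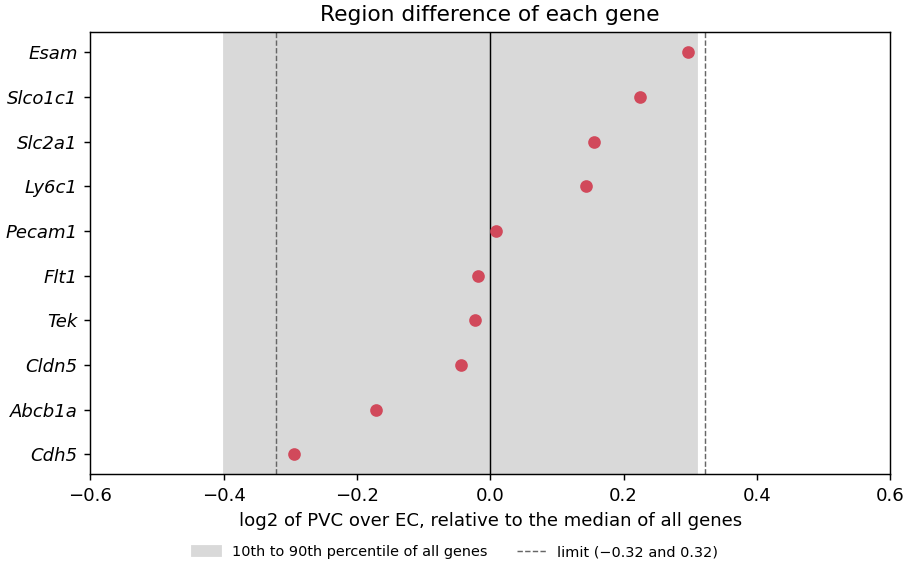
Log2 of the PVC over the EC mean for each of the 10 genes, relative to the median of all genes at 0. Dashed lines mark the limit of 0.32 and the grey band the range that holds most of all genes, from −0.40 to 0.31. All 10 genes lie between the dashed lines, from *Cdh5* at −0.29 to *Esam* at 0.30.

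Other endothelial genes were looked up in the same way. Of 26 further endothelial markers, 24 passed the filter, 2 were past the limit with the higher level in the PVC and none with the lower, and their median log2 ratio was −0.08. The exceptions were *Cd34*, a surface sialomucin of endothelial and blood progenitor cells, with means of 1226 in the EC against 2592 in the PVC and a log2 ratio of 1.97, and *Erg*, an endothelial ETS factor, with 0.46. *Itm2a* had the highest level per kilobase of this list in the EC, at 1138. *Kdr*, which encodes VEGFR2, had means of 770 and 343 and a log2 ratio of −0.28, next to −0.02 for *Flt1*.

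Of 15 further junction genes, 13 passed the filter. None was past the limit toward the PVC and 5 were past it toward the EC, namely *Cldn1* (−1.97), *Cdh2* (−0.59), *Cgn* (−0.58), *Marveld2* (−0.42) and *Ctnnb1* (−0.38). *Cldn1* is a claudin of epithelia and had means of 503 in the EC against 69.3 in the PVC, while *Cldn5* was at −0.04. *Cdh2* encodes N-cadherin, and *Ctnnb1* encodes beta-catenin, which had the highest level per kilobase of this list in the EC, 5465. The tight junction genes *Tjp1* (0.07), *Cldn12* (0.01) and *Ocln* (−0.14) were within the limit, as *Cldn5* was.

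All 18 further barrier transporters passed the filter, with a median log2 ratio of −0.07. *Tfrc*, the transferrin receptor, was past the limit toward the PVC (0.36). *Slc22a8* (−0.88), an organic anion transporter, and *Slc38a5* (−0.37), an amino acid transporter, were past it toward the EC. *Bsg*, which encodes basigin, had the highest level per kilobase in the EC, 8510. *Abcg2*, the other main efflux pump, had a log2 ratio of −0.26 beside −0.17 for *Abcb1a*.

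Several VEGF and angiopoietin ligands stood further from the median of all genes than the receptor genes *Flt1* and *Tek*, whereas *Vegfb* did not. Of the 8 VEGF and angiopoietin ligands, 7 passed the filter, 4 were past the limit toward the EC and none toward the PVC. *Angpt1*, the activating ligand of TIE2, had means of 1009 in the EC against 91.5 in the PVC, a log2 ratio of −2.58, while *Tek* was at −0.02. *Angpt2*, a context-dependent ligand of the same receptor, had 121 and 39.04 and a log2 ratio of −0.75. *Pgf* (−0.64) and *Figf* (−1.29), which encode placental growth factor and VEGF-D, were also on the EC side. *Vegfa*, the main ligand of *Flt1* and *Kdr*, was at 0.17 with means of 3654 and 2217, and *Vegfb*, which also binds VEGFR1 and had the highest level per kilobase of this list in the EC, 1364, was at −0.01.

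Of the 7 receptors, *Flt1* and *Tek* among them, 2 were past the limit, both toward the EC. These were the co-receptors *Nrp2* (−1.75) and *Nrp1* (−0.34), which neurons also express, and *Nrp2* had the highest level per kilobase in the EC, 392. *Tie1* (−0.13) and *Flt4* (−0.04) were within it. In the Wnt signal that induces the barrier, 10 of 11 genes are listed and 4 were past the limit toward the EC, the ligands *Wnt7b* (−1.29) and *Wnt7a* (−0.67), the co-activator *Gpr124* (−0.50) and *Ctnnb1*. The receptor genes *Fzd4* (−0.22), *Lrp5* (−0.25) and *Lrp6* (0.01) and *Reck* (−0.14) were not. Of 6 genes of fenestrated or activated endothelium, 3 passed the filter. *Plvap*, which marks fenestrated vessels, had means of 384 and 251 (0.27), and *Vcam1* was past the limit toward the EC (−0.34), with the highest level per kilobase of this list, 249.

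**Figure D4:**
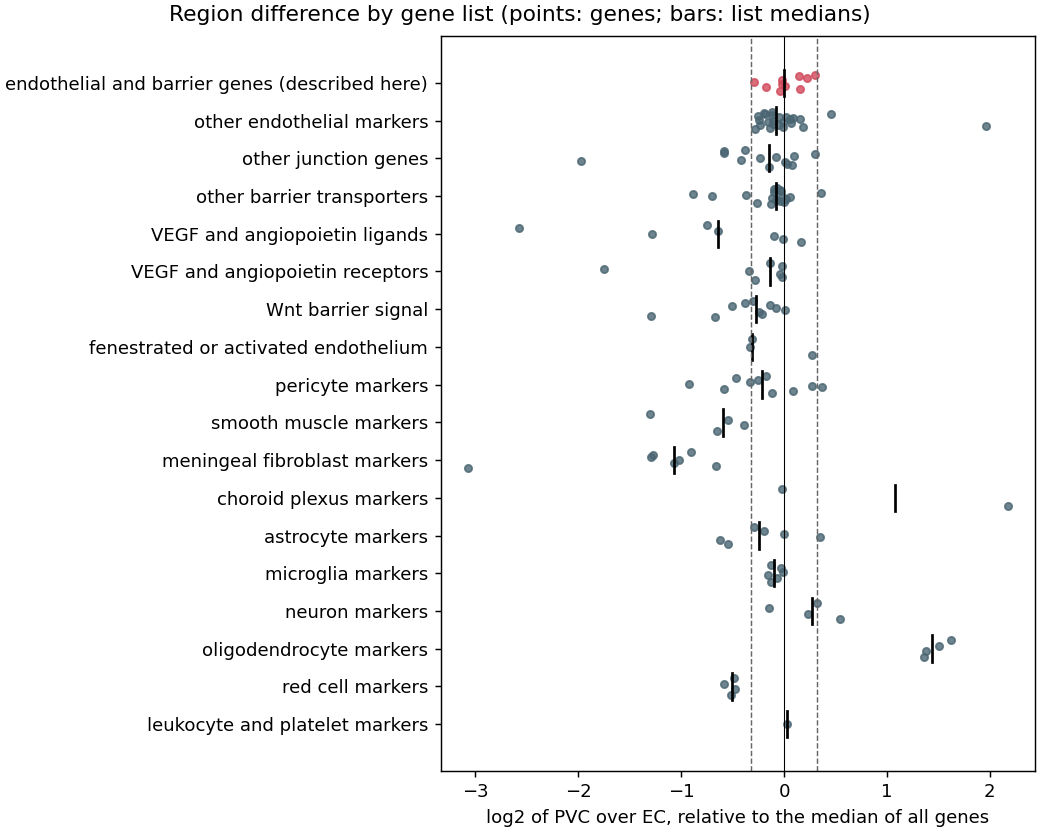
Log2 of the PVC over the EC mean, relative to the median of all genes, for each gene past the filter (points) in each list, with the list median as a bar and the limit of 0.32 as dashed lines. The 10 endothelial and barrier genes (red, top row) lie between −0.29 and 0.30, whereas all 7 meningeal fibroblast markers lie at −0.66 or lower and all 4 oligodendrocyte markers at 1.36 or higher.

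Markers of several other cell types at or near vessels stood past the limit, while the 10 genes lay within it. All 7 meningeal fibroblast markers were past the limit toward the EC, with a median of −1.07 and summed means of 12843 in the EC against 2561 in the PVC (−1.44). *Dcn* had means of 4548 and 292. All 4 smooth muscle markers past the filter were on the EC side (median −0.60), with *Mylk* at −1.30 and *Acta2* at −0.65. Of 10 pericyte markers, 4 were past the limit toward the EC and 1, *Kcnj8* (0.37), toward the PVC, with a median of −0.21. *Vtn* had the highest level per kilobase of these, 1563, and a log2 ratio of −0.33. The part of meningeal and mural cells in the differences of the 10 genes was not tested.

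All 4 red cell markers were past the limit toward the EC, from −0.58 for *Hba-a1* to −0.48 for *Hbb-b2*, with summed means of 3626 in the EC against 1359 in the PVC (−0.53). Blood cells also express some of the 10 genes, such as *Pecam1*. The leukocyte and platelet markers were low, 6 of 7 under the filter, with *Cd3e* at 3.35 and 0.547, *Ms4a1* at 1.80 and 0.503 and *Ccr2* at 25.3 and 5.30 in the EC and the PVC. Of the 5 choroid plexus markers 2 passed the filter. *Ttr* had means of 155 and 378 (2.17), whereas *Kl* had 194 and 103 (−0.02).

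Among the parenchymal cells, all 4 oligodendrocyte markers were past the limit toward the PVC (median 1.44), with summed means of 39960 in the EC against 56485 in the PVC (1.39). None of the 6 microglia markers was past it (median −0.10). Of 6 astrocyte markers, *Gfap* (−0.62) and *Aqp4* (−0.55), the water channel of the end-feet that wrap the vessels, were on the EC side and *Aldh1l1* (0.35) on the PVC side. *Slc1a2*, the main glutamate transporter, was at −0.0033 and had the highest level per kilobase. *Slc1a3* (−0.19) and *Gja1* (−0.29) were within the limit, and the median of the 6 was −0.24, while *Slco1c1* (0.23) and *Slc2a1* (0.16), which astrocytes also express, stood on the PVC side. Of the 4 listed neuronal markers, *Snap25* (0.54) was past the limit toward the PVC.

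The genes share an expression site but lie on 8 chromosomes, with *Slc2a1* and *Tek* both on chromosome 4 and *Abcb1a* and *Flt1* both on chromosome 5. In NCBIM37, *Tek* spans 94405980 to 94541667 and *Slco1c1* 141472907 to 141518241 of chromosome 6, both on the plus strand. *Abcb1a* spans 8660077 to 8748575 on the plus strand of chromosome 5 and *Flt1* 148373180 to 148537587 on its minus strand. *Cdh5* lies on chromosome 8 (106625525 to 106668402, plus), *Esam* on chromosome 9 (37335663 to 37345904, plus) and *Pecam1* on chromosome 11 (106515531 to 106611942, minus). RefSeq promoter windows of GRCm38.p6 were matched for 7 of the 10 genes, and the 250 bases before the start were read. The letters GGAAG, an extended core of ETS sites, occur on either strand in 4 of the 7 windows, those of *Abcb1a*, *Flt1*, *Slco1c1* and *Ly6c1*, and in 63.6% of all 27025 windows. GGGCGG, the GC box, occurs in 3 of the 7 and in 32.9% of all, and TATAAA in 2 of the 7 and in 13.0% of all. ACAAAG, a SOX-type element, occurs in 3 of the 7 and in 16.5% of all, and CCAAT in 3 of the 7 and in 34.5% of all. None of the 5 motifs was in all 7 windows. The count of CG dinucleotides ran from 0 in *Abcb1a* and *Slco1c1* to 23 in *Flt1*, beside a median of 6 over all windows.

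The upstream windows of 3 transporters are shown because they include the gene with the highest level and, among genes with a window, those furthest to either side between the regions. Capitals mark GGAAG and its reverse complement. *Slc2a1* (plus strand, chr4:119108495-119108744) holds none and has 66.4% G and C. *Abcb1a* (plus strand, chr5:8566841-8567090) holds 2 and has 40.4% G and C, and *Slco1c1* (plus strand, chr6:141524104-141524353) holds 4 and has 42.8%.

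*Slc2a1*: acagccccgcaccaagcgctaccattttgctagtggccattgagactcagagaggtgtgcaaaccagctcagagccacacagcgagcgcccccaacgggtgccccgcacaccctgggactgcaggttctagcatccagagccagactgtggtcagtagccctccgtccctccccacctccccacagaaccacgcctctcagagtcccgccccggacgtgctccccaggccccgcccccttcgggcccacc

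*Abcb1a*: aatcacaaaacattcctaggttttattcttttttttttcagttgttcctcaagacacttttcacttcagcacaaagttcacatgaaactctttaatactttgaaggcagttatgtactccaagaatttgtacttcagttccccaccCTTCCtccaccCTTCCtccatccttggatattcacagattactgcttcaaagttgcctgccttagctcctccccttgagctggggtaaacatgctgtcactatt

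*Slco1c1*: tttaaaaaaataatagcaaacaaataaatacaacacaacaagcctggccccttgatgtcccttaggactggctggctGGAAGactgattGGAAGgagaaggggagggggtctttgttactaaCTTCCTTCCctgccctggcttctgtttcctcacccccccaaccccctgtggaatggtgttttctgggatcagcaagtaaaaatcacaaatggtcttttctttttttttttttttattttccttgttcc

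A match of letters is a description and not a bound site.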

How the data were processed

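Each library was placed in its brain region and *APOE* genotype by its GEO label. The authors aligned 149-base single-end reads of poly(A)+ RNA to mm9 with TopHat2 2.0.6 and Bowtie2 2.0.2.0, counted them per gene with HTSeq on a modified NCBIM37 annotation and normalized each region on its own with DESeq2 1.10.1. Of the deposited tables only the mean normalized count was used, a signal that the authors averaged over the 29 libraries of a region. The other columns hold the authors' fold change between the genotypes, its standard error, the Wald statistic and *p*-values, and were not used. Depth per library and the error of each mean are therefore not given.

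Ratios between regions were centred on the median log2 ratio of the genes with a mean of at least 100 in either region, with nothing added to the means, and a limit of 0.32 on the log2 scale was used to describe them without a test. Lengths are exon unions of GENCODE vM1 (NCBIM37), in which 80.6% of the listed symbols and 96.9% of those past the filter matched 1 gene. Python 3.11.15, numpy 2.4.6, pandas 2.3.3 and matplotlib 3.10.9 were used. The calculation of the ratios was checked on simulated data without noise, which says nothing on the spread of the real means. The genes and lists were chosen with earlier results of these data known. All 10 genes are named. Of the other lists, the gene with the highest level per kilobase in the EC, those past the limit (at most 5 per list) and ligands, receptors and paralogs were named, and further list members were named after their values were seen. Some list members are not reported here.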

Additional observations from a re-analysis of the deposited data

How the results depend on the processing

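The number of the 10 genes past the limit of 0.32 was 0 when the tables were centred on their sums, when the minimum mean was 10 or 1000 and when 1 was added to each mean. A limit of 1.5-fold is wider and could not change this count. With the means as deposited it was 10, all lower in the PVC, because the whole PVC table stands lower. The median log2 ratio of the 10 genes was −0.0246 centred on table sums, 0.0135 at a minimum mean of 10, −0.0165 at 1000, −0.0053 with 1 added and −0.8926 as deposited, beside −0.0047. Divided by the longest transcript in place of the exon union, the median level per kilobase was 445 in the EC against 230 in the PVC, where the exon union gave 329 and 166. Of the 10 genes, 4 changed rank in the EC and 3 did so in the PVC, and *Flt1* rose most, by 1.68-fold. The median percentile of the mean was 38.7 in the EC against 38.6 in the PVC among the genes past the filter, and 68.7 and 67.7 among all genes with a mean above 0. No paired analysis was possible because no values of single mice were used. For the same reason no replicate was left out in turn.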
